A study of Mus musculus with 8 samples.

Results

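The 8 genes of thiol and selenium redox chemistry described here in sorted mouse spermatocytes with and without Bend2 are Txndc2, Txndc8, Nme8, Txnrd3, Txnrd1, Txn1, Gpx4 and Prdx4. They were chosen by name, as the transcripts whose reference gene symbol in the deposited assemblies is one of these 8 symbols, out of 27578 gene symbols with a value. All 8 were found, in 120 transcript records over 8 libraries, and all 8 passed the filter on low values. The sum of the TPM (a level per unit of transcript length, scaled to a fixed total in each library) of a gene's transcripts is its level. The cells were spermatocytes at 2 early stages of meiotic prophase, leptotene and zygotene, sorted by FACS from C57BL/6 mice of 2 months, either Bend2 wild type (WT) or Bend2 knockout (KO), and total RNA was taken with TRIzol into directional libraries made at one time. Each of the 4 groups (both genotypes at both stages) has 2 libraries, although the design text speaks of 3 replications. Whether the 2 libraries of a group came from different mice is not labelled, nor how the knockout allele was made, so a p-value here measures spread between libraries that can be technical. The level of Bend2 itself was not analysed here.

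Thioredoxins are small proteins that reduce disulfides in other proteins through a pair of cysteines, and thioredoxin reductases return them to the reduced state with electrons from NADPH. Male germ cells add testis members to this system. Txndc2 and Txndc8 encode sperm thioredoxins of the tail sheath and of the acrosome region, Nme8 encodes a thioredoxin joined to nucleoside diphosphate kinase domains that is found in cilia and the sperm tail, and Txnrd3 encodes thioredoxin glutathione reductase. Gpx4 encodes the selenium enzyme that detoxifies lipid hydroperoxides and that hardens the sperm midpiece and chromatin, Prdx4 encodes a peroxiredoxin of the secretory pathway, and Txn1 and Txnrd1 encode the cytosolic thioredoxin and its reductase of most cells. The sperm members are known as genes of late meiosis and of spermatids, the haploid cells after meiosis.

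The sequences that place the 8 genes in this system are short stretches of coding sequence read from GENCODE M21 (GRCm38), 5′ to 3′. In the 4 thioredoxins the capitals mark both cysteine codons of the active site. Of Txndc2 the stretch is chr17:65637732-65637761, of Txndc8 chr4:58007090-58007119, of Nme8 chr13:19696650-19696679 and of Txn1 chr4:57951812-57951841, each inside 1 exon on the minus strand.
Txndc2: gccgcttggTGTggccccTGCagaatgatg
Txndc8: gcaaagtggTGTggccccTGCaaaacaatt
Nme8: caagcctggTGTggacctTGCaaagccgtg
Txn1: gctacgtggTGTggacctTGCaaaatgatc
The first cysteine codon of this pair is codon 477 of 550 in Txndc2, 58 of 153 in Txndc8, 39 of 586 in Nme8 and 32 of 105 in Txn1, so the site lies toward the end of the long Txndc2 protein and before the midpoint of the others.

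In the selenium enzymes the capitals mark the TGA codon that is read as selenocysteine rather than as a stop. Of Txnrd3 the stretch is chr6:89674774-89674797, of Txnrd1 chr10:82896022-82896045 and of Gpx4 chr10:80054722-80054751, all on the plus strand.
Txnrd3: actcagaaaggctgcTGAggctag
Txnrd1: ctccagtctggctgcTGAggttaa
Gpx4: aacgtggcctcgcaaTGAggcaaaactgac
In both reductases this codon is the next to last of the coding sequence, stop codon not counted, codon 614 of 615 in Txnrd3 and 498 of 499 in Txnrd1, and in Gpx4 it is codon 73 of 197.

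The sperm thioredoxins were the members that fell. Levels below are scaled TPM, which means TPM divided by a library factor (the median ratio over genes), and each list of values gives replicate 1 and then replicate 2. Txndc2 stood at 56.3 and 84.5 in WT leptotene and 36.3 and 64.1 in WT zygotene, against 2.05 and 0 in KO leptotene and 0 and 1.68 in KO zygotene. Every KO library lay far below every WT library. Txndc2 changed by -5.32 ± 0.72 (SE, n = 2 and 2 libraries), in log2(scaled TPM + 1), at leptotene (limma adjusted p = 0.035) and by -4.91 ± 0.72 at zygotene (limma adjusted p = 0.0405). A value of 0 says that no transcript named for the gene was assembled in that library and is no proof of missing RNA, and the pseudocount of 1 makes these differences smaller than they are for low genes.

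Txndc8, which lies on chromosome 4 only 27615 bases from Txn1, stood at 14.2 and 14.8 in WT leptotene and 9.76 and 11.0 in WT zygotene, against 0 and 0 in KO leptotene and 1.25 and 0 in KO zygotene. Its groups did not overlap at either stage. It fell at leptotene (limma adjusted p = 0.0381) and missed the threshold at zygotene (limma adjusted p = 0.0615). Nme8 stood at 12.7 and 20.6 in WT leptotene and at 10.8 and 15.5 in WT zygotene, and was listed at 0 in all 4 KO libraries. It fell at leptotene (limma adjusted p = 0.0343) and at zygotene (limma adjusted p = 0.0396), and no fold is given against libraries at 0.

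Among the 8 genes, then, 3 passed the test at leptotene, where 1.12% of all 16929 tested genes did, and 1.01% as lower. At zygotene 2 passed, Txndc2 and Nme8, where 1.3% of all genes did, and 1.15% as lower. Averaged over both stages, Txndc2, Txndc8 and Nme8 passed (limma adjusted p = 0.0050, 0.0066 and 0.0047), where 7.93% of all genes did, and 6.33% as lower. No member rose in any of the 3 comparisons, where 0.106%, 0.148% and 1.61% of all genes did. The calls at single stages rest on few libraries. Leaving out either leptotene library of either genotype, or either WT zygotene library, ended all 3 calls at leptotene, and leaving out any 1 library ended both calls at zygotene, while the 3 calls over both stages held without each library in turn.

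**Figure D1:**
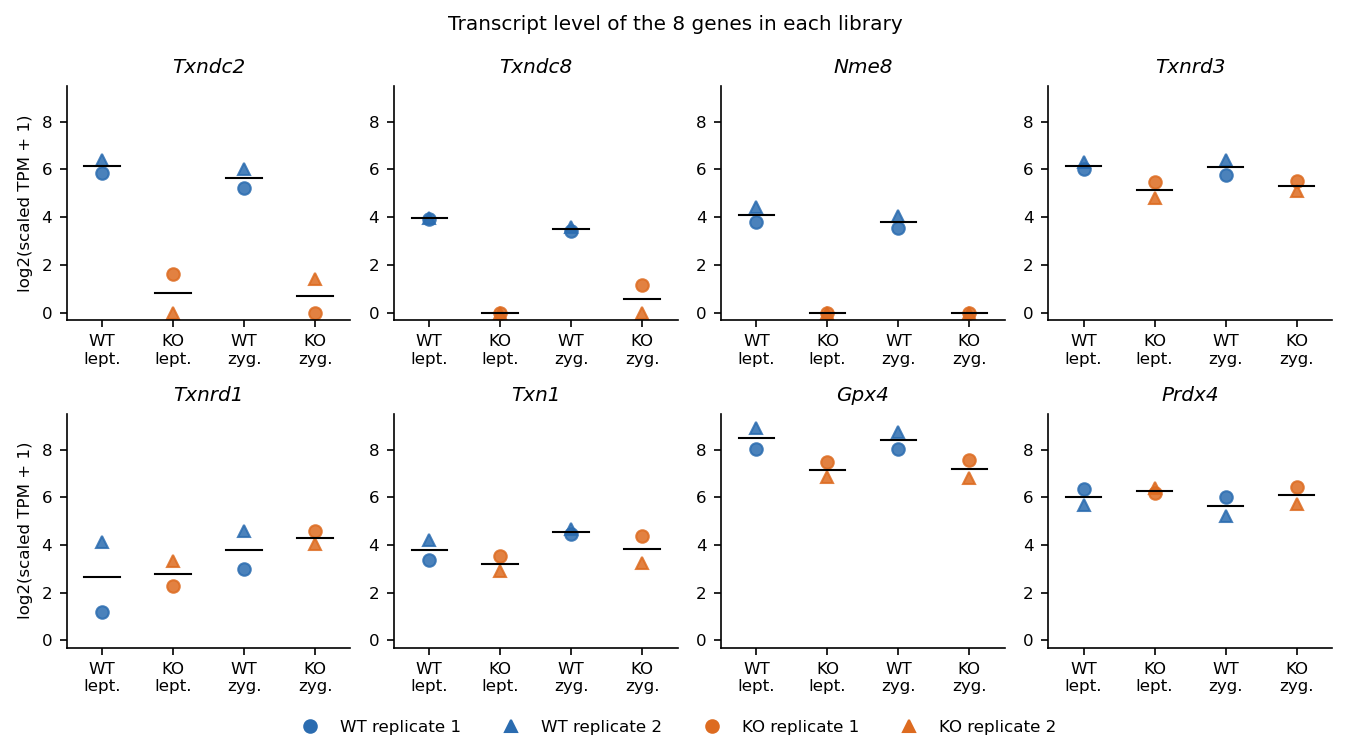
Level of each of the 8 genes, as log2(scaled TPM + 1), in WT (blue) and KO (orange) leptotene and zygotene libraries, with circles for replicate 1, triangles for replicate 2 and black lines for group means. Txndc2, Txndc8 and Nme8 sit at or near 0 in all 4 KO libraries, Txnrd3 and Gpx4 are lower in every KO library than in every WT library, and Txnrd1, Txn1 and Prdx4 overlap.

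The zeros were examined with a second measure that does not need a named transcript, added after the levels were seen. It is the mean read depth over the exons of the main reference transcript from all assembled transcripts of the same strand, divided by the aligned gigabases of the library, which the files imply to be between 6.82 and 9.45. Reads outside assembled transcripts are not counted, so low values can understate the RNA present. For Txndc2 (chr17:65637507-65642168, minus strand, 3 exons) this coverage was 24.4 and 41.0 in WT leptotene, 20.5 and 33.7 in WT zygotene, 1.59 and 0.468 in KO leptotene, and 1.48 and 0.730 in KO zygotene. The mean was 29.9 ± 9.24 (SD, n = 4) in WT and 1.07 ± 0.554 (SD, n = 4) in KO, which is 28.0-fold lower (exact two-sided permutation test, p = 0.0286, the smallest that 4 against 4 libraries allow). All 4 KO libraries thus held some Txndc2 RNA, also the 2 in which no named transcript was listed.

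For Txndc8 (chr4:57984027-58009124, minus strand, 6 exons) coverage was 6.18 and 9.09 in WT leptotene, 5.01 and 5.76 in WT zygotene, 0.493 and 0.0698 in KO leptotene, and 0.482 and 0.191 in KO zygotene. The means were 6.51 ± 1.78 (SD, n = 4) in WT and 0.309 ± 0.212 (SD, n = 4) in KO, 21.1-fold lower (exact permutation p = 0.0286). For Nme8 (chr13:19645078-19697794, minus strand, 17 exons) it was 6.78 ± 1.85 (SD, n = 4) in WT and 0.542 ± 0.501 (SD, n = 4) in KO, 12.5-fold lower (exact permutation p = 0.0286). Nme8 was the most uneven of the sperm genes in KO. Its KO coverage was 1.17 and 0.256 at leptotene and 0.704 and 0.0389 at zygotene. Assembled transcripts covered 82.5% and 35.6% of its exonic bases in KO leptotene and 71.5% and 14.6% in KO zygotene, against 100% in each WT library. Gaps were not particular to Nme8. Txndc8 was covered over 44.8% and 46.8% in KO leptotene and 100% and 39.8% in KO zygotene. Txndc2 was covered over 100% and 61.2% in KO leptotene and 58.2% and 100% in KO zygotene.

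In KO libraries the Nme8 locus held only short transcripts without a gene name. They were between 274 and 801 bases long with at most 6 of the 17 exons. Their TPM, a value per length, adds to a sum that counts short pieces as much as whole transcripts, and with unnamed transcripts added by overlap with GENCODE genes Nme8 stood at 19.9 and 21.1 in WT leptotene and 12.3 and 16.1 in WT zygotene, against 10.7 and 5.31 in KO leptotene and 7.95 and 0.672 in KO zygotene. Under that assignment Nme8 did not pass the test over both stages (limma adjusted p = 0.0856), although it remained lower in each KO library than in each WT library. Txndc2 then had between 1.82 and 6.56 in KO and between 57.1 and 96.7 in WT, and Txndc8 between 0.436 and 2.58 in KO and between 12.8 and 23.6 in WT.

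**Figure D2:**
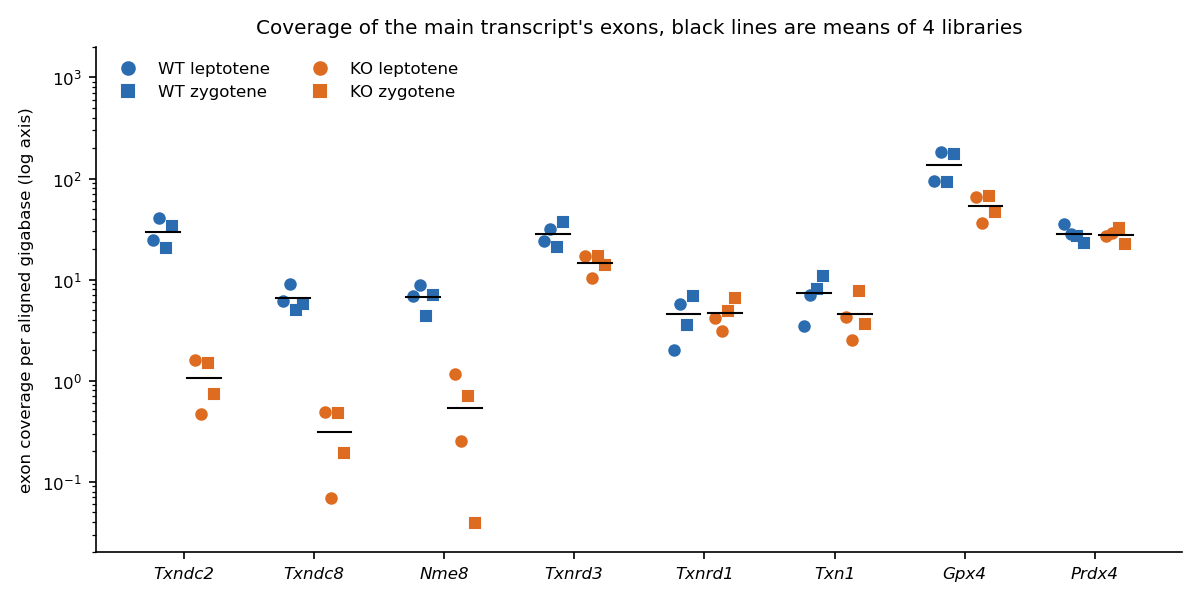
Coverage of the exons of each gene's main reference transcript per aligned gigabase, on a log axis, for WT (blue) and KO (orange) leptotene (circles) and zygotene (squares) libraries, with black lines for the mean of 4 libraries. The KO points of Txndc2, Txndc8 and Nme8 sit between 0.0389 and 1.59, those of Txnrd3 and Gpx4 lie under all WT points by a smaller step, and those of Txnrd1, Txn1 and Prdx4 lie among the WT points.

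Exon by exon, the loss of Txndc2 was even. Mean KO coverage was 3.22%, 3.34% and 3.64% of WT over its exons 1, 2 and 3. In Txndc8 it lay between 2.35% and 11.6% of WT over 6 exons, and in Nme8 between 1.56% and 18.0% over 17 exons, with the highest share in exon 4 and the lowest in exon 11. These are means of 4 libraries, and single KO libraries came nearer to WT in Nme8, as in exon 4, where KO leptotene replicate 1 had 3.13 and WT zygotene replicate 1 had 4.73.

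**Figure D3:**
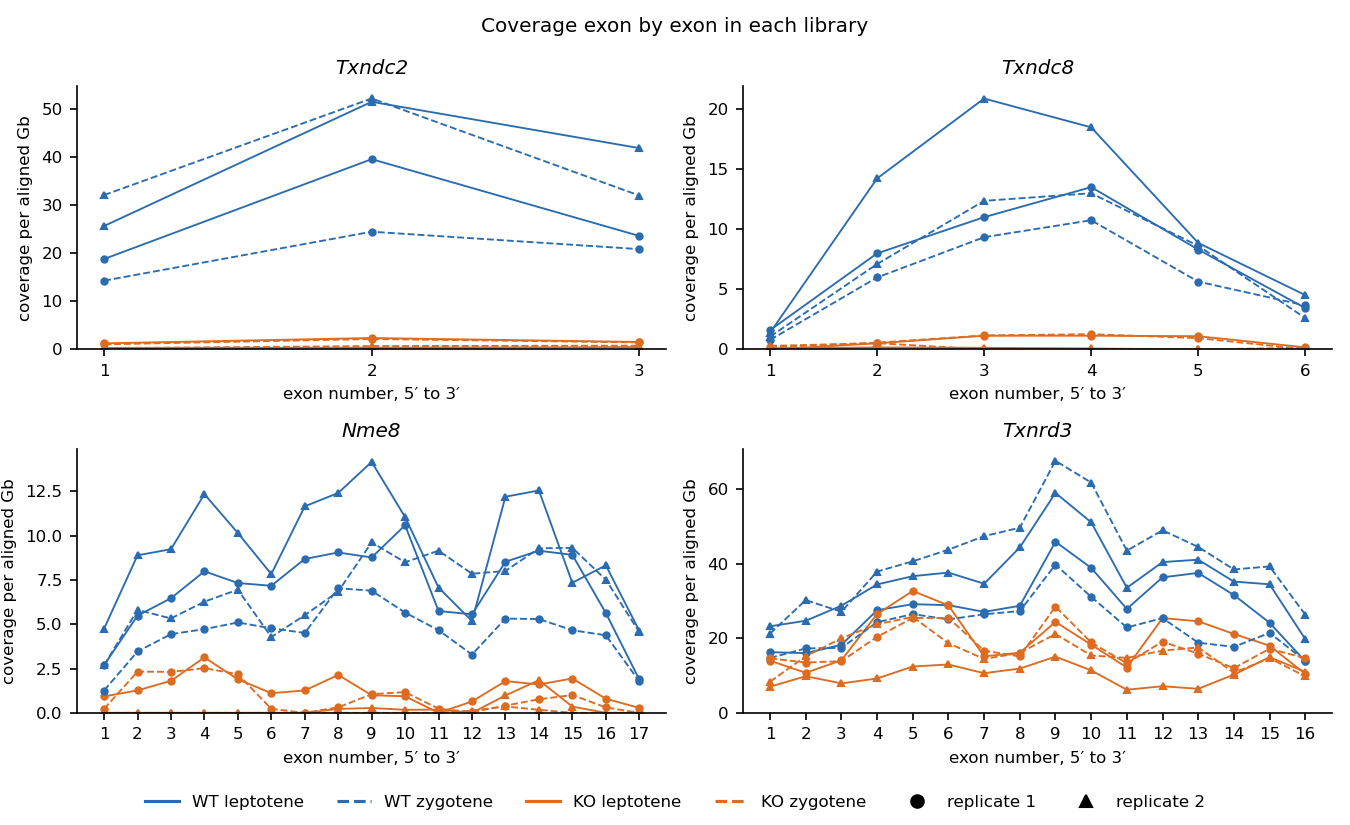
Coverage per aligned gigabase of each exon, 5′ to 3′, in each library for Txndc2, Txndc8, Nme8 and Txnrd3, with WT in blue, KO in orange, leptotene as solid and zygotene as dashed lines. KO lines run close to 0 along Txndc2 and Txndc8, and less evenly along Nme8. There both KO replicates numbered 1 reach between 1.27 and 3.13 in exons 2 to 5. KO leptotene replicate 1 also reaches 2.14 in exon 8 and 1.94 in exon 15, and KO leptotene replicate 2 reaches 1.84 in exon 14. Along Txnrd3 the distance between the WT and KO means is largest in exon 9 (53.1 and 22.3).

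The upstream sequences of the 3 sperm thioredoxin genes are shown because the genes fell together. They are the 250 bases before the RefSeq start (GRCm38.p6, each on the minus strand, written 5′ to 3′ along the gene) of Txndc2 at chr17:65642205-65642454, of Txndc8 at chr4:58009127-58009376 and of Nme8 at chr13:19697761-19698010. Txndc2 also has a RefSeq start further downstream, whose window is not shown. Capitals mark the letters TGACATCA on either strand, which read TGATGTCA on the other.
Txndc2: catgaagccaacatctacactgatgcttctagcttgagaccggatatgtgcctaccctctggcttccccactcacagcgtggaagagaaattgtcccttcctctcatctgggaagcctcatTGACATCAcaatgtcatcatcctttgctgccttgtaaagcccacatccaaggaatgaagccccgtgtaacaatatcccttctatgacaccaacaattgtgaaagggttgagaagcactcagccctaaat
Txndc8: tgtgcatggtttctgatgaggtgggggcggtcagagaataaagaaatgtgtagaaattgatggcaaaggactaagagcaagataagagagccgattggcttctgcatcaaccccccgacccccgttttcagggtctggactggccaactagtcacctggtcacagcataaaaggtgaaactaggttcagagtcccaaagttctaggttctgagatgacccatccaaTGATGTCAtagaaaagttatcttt
Nme8: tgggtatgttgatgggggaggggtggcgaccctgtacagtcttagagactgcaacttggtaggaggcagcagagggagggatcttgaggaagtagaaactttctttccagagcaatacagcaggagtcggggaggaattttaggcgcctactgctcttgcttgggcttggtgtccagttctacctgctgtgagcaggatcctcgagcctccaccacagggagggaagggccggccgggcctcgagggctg
TGACATCA begins 129 bases before the start of Txndc2 and 24 bases before that of Txndc8, and it was also found 136 bases before 1 of the 3 starts of Txnrd1, a gene that did not fall. It was picked after reading the sequences, and 2.93% of the 32851 upstream windows in the table hold it. The letters TGACGTCA, the cyclic AMP response element, which 1.55% of windows hold, and TATAAA, which 12.4% hold, were in none of these 3 windows. CG pairs numbered 3 upstream of Txndc2, 4 of Txndc8 and 7 of Nme8, beside a median of 6 over all windows. They numbered 13 upstream of Txnrd3, 13 of Prdx4 and 15 of Txn1. Over the different starts they ran from 2 to 24 for Gpx4 and from 2 to 19 for Txnrd1. The window of the downstream Txndc2 start held 0 CG pairs and no TGACATCA. A match of letters is a description of the window, not a binding site.

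The reductase of sperm, Txnrd3 (chr6:89643988-89675529, plus strand), was lower in KO by a smaller step. It stood at 63.9 and 77.7 in WT leptotene and 54.2 and 83.8 in WT zygotene, against 43.1 and 26.7 in KO leptotene and 44.6 and 32.8 in KO zygotene. No KO library reached the lowest WT library. The log2 difference was -0.92 ± 0.25 (SE) averaged over both stages and did not pass over all genes (limma adjusted p = 0.0699), while the permutation test of this gene alone gave its smallest value (exact two-sided p = 0.0286, n = 4 and 4). It passed with TPM as deposited (limma adjusted p = 0.0311) and with unnamed transcripts of the locus added (0.0361) or added by GENCODE overlap (0.0196). It also passed with library kind, a high or low share of unannotated transcripts (below), in the model, added after seeing the data (limma adjusted p = 0.0193). Of 22 alternatives Txnrd3 passed in 5 and did not pass in 17, and its adjusted p lay between 0.00469 and 0.187. Of all genes 7.93% were called in the main fit and 9.21% with TPM as deposited. The share was 12.2% with locus transcripts, 8.91% with GENCODE overlap and 10.3% with library kind.

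Coverage of Txnrd3 was 28.5 ± 7.40 (SD, n = 4) in WT and 14.7 ± 3.23 (SD, n = 4) in KO, a 1.95-fold difference (exact permutation p = 0.0286). It was not even along the gene. As a percent of WT, mean KO coverage was between 55.8% and 72.4% in exons 1 to 6, between 35.0% and 54.3% in exons 7 to 15, and 62.1% in exon 16. Whether exons differ in their loss was not tested.

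Gpx4 (chr10:80047166-80056439, plus strand) was the most abundant member in every library. Its level was 260 and 482 in WT leptotene and 258 and 431 in WT zygotene, against 176 and 113 in KO leptotene and 188 and 110 in KO zygotene. The lowest WT library exceeded the highest KO library. The log2 difference over both stages was -1.26 ± 0.32 (SE), just outside the threshold over all genes (limma adjusted p = 0.0572), with an exact two-sided permutation p of 0.0286 for the gene alone (n = 4 and 4). It passed with TPM as deposited (limma adjusted p = 0.0233), with quantile normalization (0.0184) and with a filter at a TPM of 5 (0.0458). It also passed with unnamed transcripts of the locus added (limma adjusted p = 0.0386) or added by GENCODE overlap (0.0188), and with library kind in the model (0.0056). Of 22 alternatives Gpx4 passed in 7 and did not pass in 15, and its adjusted p lay between 0.000839 and 0.163. Of all genes 7.85% were called with quantile normalization and 12.3% with the filter at 5. The other shares are those given for Txnrd3. Coverage was 137 ± 50.4 (SD, n = 4) in WT and 54.0 ± 15.0 (SD, n = 4) in KO, 2.54-fold lower, and KO kept between 33.6% and 48.3% of WT coverage in each of its 7 exons. A transcribed processed pseudogene, Gpx4-ps2, was listed at 0 in each library, and Txn-ps1, a pseudogene of Txn1, reached a TPM of at most 0.219. How reads shared between a gene and its pseudogene were assigned is not known.

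By the level, 5 of 8 members, the 3 sperm thioredoxins, Txnrd3 and Gpx4, were lower in every KO library than in every WT library, and 0 were higher, where 10.9% of all tested genes were lower in this way and 6.59% higher. The same 5 genes stood apart by coverage. Within a stage 5 of 8 members were lower without overlap at leptotene, where 26.1% of all genes were, and 6 of 8, Txn1 included, at zygotene, where 27.6% were. None of the 8 was higher without overlap at leptotene, where 19.1% of all genes were, or at zygotene, where 19.7% were.

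The general thioredoxin Txn1 (chr4:57943373-57956411) stood at 9.22 and 17.4 in WT leptotene and 21.1 and 24.3 in WT zygotene, against 10.4 and 6.45 in KO leptotene and 19.9 and 8.47 in KO zygotene. WT and KO libraries overlapped at leptotene and over both stages. The log2 difference was -0.66 ± 0.36 (SE, 95% interval -1.51 to 0.19), which did not pass (limma adjusted p = 0.311).

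Its reductase Txnrd1 (chr10:82833951-82897712) had the least stable value. It was listed at 1.31 and 16.6 in WT leptotene and 6.97 and 23.2 in WT zygotene, against 3.90 and 8.90 in KO leptotene and 22.7 and 15.6 in KO zygotene. In WT leptotene replicate 1, 97.8% of that value came from Txnrd1-202, a retained-intron transcript, which held 0% in WT zygotene replicate 1 and in both KO replicates numbered 2. Coverage over the exons of its main transcript was steadier, at 4.53 ± 2.16 (SD, n = 4) in WT and 4.67 ± 1.46 (SD, n = 4) in KO (exact permutation p = 0.771). The 95% interval of its log2 difference in level, -1.34 to 1.98, leaves room for a change of more than 2-fold either way.

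Prdx4 (chrX:155323918-155340754, minus strand) did not pass as a whole gene (log2 difference 0.36 ± 0.29, SE, 95% interval -0.31 to 1.04, limma adjusted p = 0.475) but differed in where its transcripts began. Its level was 81.0 and 50.2 in WT leptotene and 64.0 and 36.0 in WT zygotene, against 70.8 and 82.5 in KO leptotene and 86.0 and 52.1 in KO zygotene, and coverage was 28.3 ± 5.13 (SD, n = 4) in WT and 27.7 ± 4.20 (SD, n = 4) in KO (exact permutation p = 0.83). Prdx4 has a main first exon, at chrX:155338113-155338467, that encodes a signal peptide for the secretory pathway, and an alternative first exon upstream, at chrX:155340309-155340754, of a form known from testis. The coding part of each first exon is shown from its ATG, in capitals, because the forms begin there, at chrX:155338113-155338362 for the main exon and chrX:155340309-155340507 for the alternative one.
Prdx4 main first exon: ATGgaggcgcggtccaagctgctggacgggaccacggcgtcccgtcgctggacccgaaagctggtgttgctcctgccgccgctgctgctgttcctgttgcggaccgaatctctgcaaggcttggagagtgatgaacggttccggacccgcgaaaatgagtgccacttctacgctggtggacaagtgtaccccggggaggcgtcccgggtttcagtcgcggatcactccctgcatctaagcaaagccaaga
Prdx4 alternative first exon: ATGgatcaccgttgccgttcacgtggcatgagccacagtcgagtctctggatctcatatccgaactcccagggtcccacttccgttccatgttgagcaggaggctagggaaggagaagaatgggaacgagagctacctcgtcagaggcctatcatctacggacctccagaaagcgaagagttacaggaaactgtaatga
The in-frame ctg, ttg and ctc codons of the main exon code for leucine, as is common in signal peptides.

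Coverage of the alternative exon was 7.89 and 10.2 in WT leptotene, 4.50 and 11.5 in WT zygotene, 1.95 and 0.250 in KO leptotene, and 1.53 and 0.456 in KO zygotene. All KO libraries lay below all WT libraries, with means of 8.52 ± 3.07 (SD, n = 4) in WT and 1.05 ± 0.823 (SD, n = 4) in KO, 8.14-fold lower (exact two-sided permutation p = 0.0286). Coverage of the main first exon was 22.1 ± 7.26 (SD, n = 4) in WT and 29.7 ± 5.02 (SD, n = 4) in KO and overlapped (exact permutation p = 0.171). The alternative exon therefore held 19.9% and 36.3% of the coverage of both first exons in WT leptotene, 16.1% and 42.8% in WT zygotene, 6.25% and 0.977% in KO leptotene, and 3.99% and 1.65% in KO zygotene.

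As a share this was 28.8% ± 12.8 (SD, n = 4) in WT and 3.22% ± 2.40 (SD, n = 4) in KO, a difference of -25.6 percentage points (exact two-sided permutation p = 0.0286). The test was added after these exons had been seen, and p became 0.0571 when any 1 KO library was left out, with differences between -29.8 and -20.9 points over the 8 single omissions. The named transcript of the exon, Prdx4-203, showed this less, since it carried 59.5% of the gene's TPM in WT leptotene replicate 2 and between 1.12% and 2.60% in the other WT libraries (exact permutation p = 0.457 for its share, -14.5 points). In those libraries the locus also held unnamed transcripts of up to 1081 bases and 7 exons. Whether these contain the alternative exon was not recorded.

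Gpx4 also has an alternative first exon, at chr10:80054037-80054300, which encodes the arginine-rich start of the nuclear form of sperm chromatin. Its coverage was 13.4 and 45.0 in WT leptotene and 23.3 and 53.2 in WT zygotene, against 15.3 and 12.2 in KO leptotene and 15.3 and 0 in KO zygotene, and WT and KO overlapped (exact permutation p = 0.0857). Its share of first-exon coverage was 40.5% ± 7.18 (SD, n = 4) in WT and 35.2% ± 24.3 (SD, n = 4) in KO (exact permutation p = 0.8). Without KO zygotene replicate 2, the only library at 0, the share was higher in KO by 6.46 points (exact permutation p = 0.457). A shift between first exons like that of Prdx4 was not detected in Gpx4, and the 2 genes were not tested against each other.

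**Figure D4:**
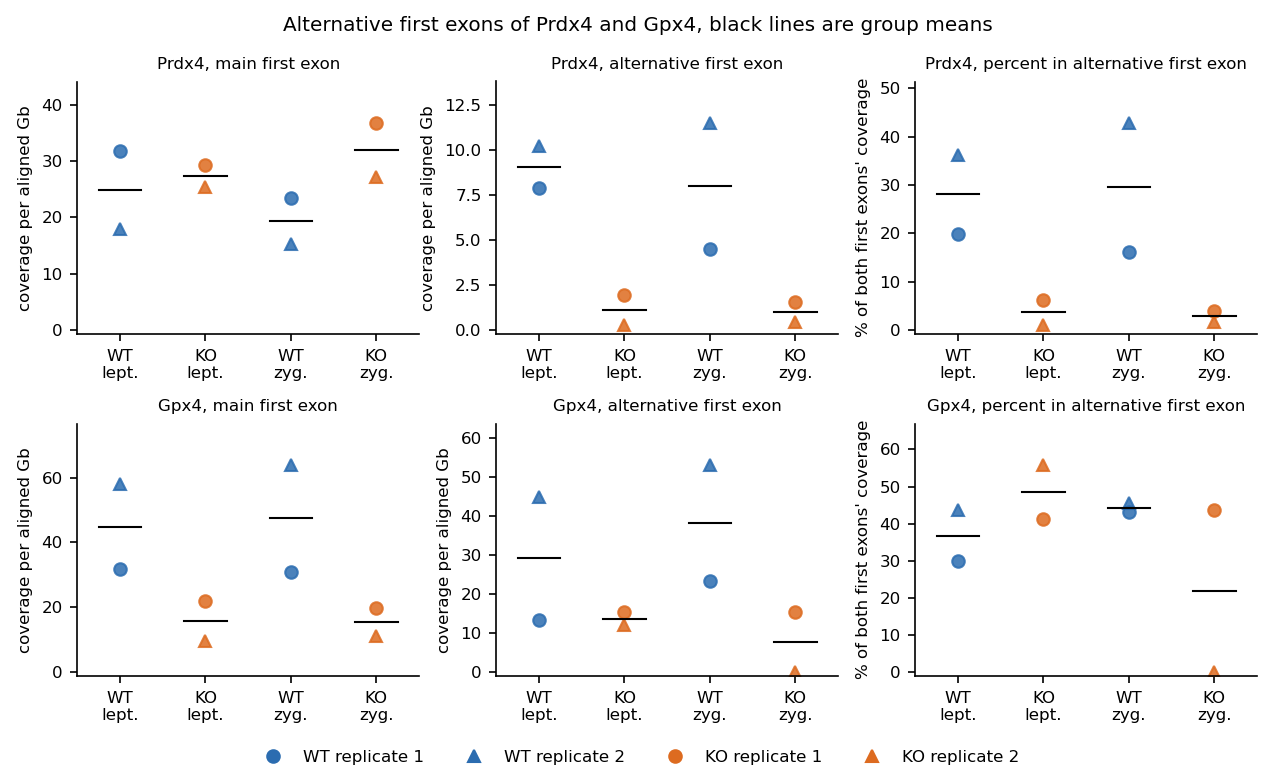
Coverage per aligned gigabase of the main and alternative first exons of Prdx4 (top) and Gpx4 (bottom), and the percent of the sum in the alternative exon, for WT (blue) and KO (orange) libraries, with circles for replicate 1, triangles for replicate 2 and black lines for group means. The alternative exon of Prdx4 holds between 16.1% and 42.8% in WT and between 0.977% and 6.25% in KO, while the shares of Gpx4 overlap.

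By coverage, a value per base that can be set between genes, the order in WT was Gpx4 at 137, then Txndc2 at 29.9, Txnrd3 at 28.5 and Prdx4 at 28.3, which overlapped, then Txn1 at 7.36, Nme8 at 6.78, Txndc8 at 6.51 and Txnrd1 at 4.53, which overlapped too. In KO the order was Gpx4 at 54.0, Prdx4 at 27.7, Txnrd3 at 14.7, Txnrd1 at 4.67, Txn1 at 4.52, Txndc2 at 1.07, Nme8 at 0.542 and Txndc8 at 0.309. Txndc2 thus went from the level of Prdx4 to below that of Txn1, and the last 3 overlapped among their libraries.

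Stage made no difference that passed for any member. Between zygotene and leptotene 0 of 8 members were called in WT, where 0% of all genes were (881 genes had an unadjusted p under 0.05), and 0 of 8 in KO, where 0.0118% were. In both, limma gave 0 members an unadjusted p under 0.05, and limma-voom called 0. For the sperm genes the WT estimates were -0.51 ± 0.72 (Txndc2), -0.45 ± 0.56 (Txndc8) and -0.30 ± 0.51 (Nme8) on the log2 scale with their SE. The interaction of genotype and stage, which asks whether the KO difference changed between stages, was called in 0 of 8 members (0 at an unadjusted p under 0.05 by limma, and 0 called by limma-voom) and in 0.0118% of all genes. The 95% interval of the Txndc2 interaction, -1.97 to 2.80, does not bound a difference between stages tightly.

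The markers of later germ cells, round spermatids and pachytene spermatocytes, were lower in KO, as the sperm genes were. The sum of 11 round spermatid markers with a value, of 12 listed, was between 4771 and 10009 scaled TPM in WT and between 645 and 1648 in KO. Over both stages 8 of the 11 fell, beside 6.33% of all genes, with a median log2 difference of -2.44 beside -0.12 for all genes. By limma-voom 7 of the 11 were called, beside 8.34% of all genes. Tnp1, Tnp2, Prm1, Prm2, Akap4, Gapdhs, Smcp, Spaca1 and Tssk6 were above 0 in each library, and Izumo1 was at 0 in all 4 KO libraries. The WT libraries sorted as leptotene and zygotene thus held transcripts of protamines and transition proteins, with Prm1 between 1119 and 2258. The 10 pachytene markers summed to between 628 and 962 in WT and between 137 and 321 in KO, and 5 of the 10 fell over both stages, beside the same 6.33%. In bulk RNA fewer cells of a type and less RNA per cell cannot be told apart.

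The labelled cell type was present by most of its own markers. Sycp1, Sycp2, Sycp3, Syce1, Dmc1, Rec8, Prdm9, Spo11 and Meioc had values above 0 in all 8 libraries, and 12 leptotene and zygotene markers summed to between 288 and 616 in WT and between 219 and 378 in KO, with 1 of 11 tested called lower. Hormad1 and Smc1b, also genes of these stages, were listed at 0 in 3 libraries each, and Meiob at 0 in KO leptotene replicate 2. Sycp2 lay between 0.0305 and 1.67 and did not pass the filter on low values. The 12 spermatogonial markers summed to between 203 and 275 in WT and between 371 and 510 in KO, and 5 rose by limma but 1 gene was called by limma-voom. Macrophage markers summed to between 109 and 647 in WT and between 17.2 and 40.0 in KO, and 4 of 9 tested fell (3 called by limma-voom). Peritubular and stromal markers summed to between 238 and 789 in WT and between 25.3 and 467 in KO, and 4 of 7 fell (2 called by limma-voom). Endothelial sums were at most 41.6 in WT and 36.0 in KO, with 1 of 2 tested called lower. Sertoli sums (37.3 to 135 in WT, 67.2 to 136 in KO, 0 of 6 called) and Leydig sums (27.3 to 153 in WT, 74.8 to 172 in KO, 1 of 5 higher) overlapped. All these calls are over both stages, where limma called 6.33% of all tested genes lower and 1.61% higher. The part of these cells in the results was not tested.

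In each of the 4 groups the library with the higher round spermatid sum also had the higher coverage of Txndc2, Txndc8, Nme8, Txnrd3, Txn1, Gpx4 and the alternative first exon of Prdx4. For Txnrd1 this held in 3 of 4 groups and for Prdx4 as a whole in 1 of 4. How many of all genes follow this order was not counted. By scaled TPM, Txndc2 went the other way in KO zygotene, at 0 in replicate 1 and 1.68 in replicate 2. Txndc8 in KO leptotene and Nme8 in all KO libraries were at 0, which gives no order there. The part of spermatid RNA in the results was not tested. In each group the library with the higher round spermatid sum also had more of its TPM in single-exon transcripts that match no annotation. The share was between 22.3% and 24.0%, against between 9.90% and 14.4%. Its erythroid marker sum was between 1083 and 2861, against between 3.01 and 178. In WT this library was replicate 2 at both stages and in KO replicate 1 at both stages. Libraries of a genotype with the same number are thus alike in these measures, and the exact tests of 4 against 4 treat them as independent, which was not tested. Within the 4 libraries of high share, coverage was lower in KO by 24.3-fold for Txndc2, 15.2-fold for Txndc8, 8.52-fold for Nme8, 2.02-fold for Txnrd3 and 2.72-fold for Gpx4. Within the 4 of low share these values were 37.5, 42.9, 37.9, 1.85 and 2.25.

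**Figure D5:**
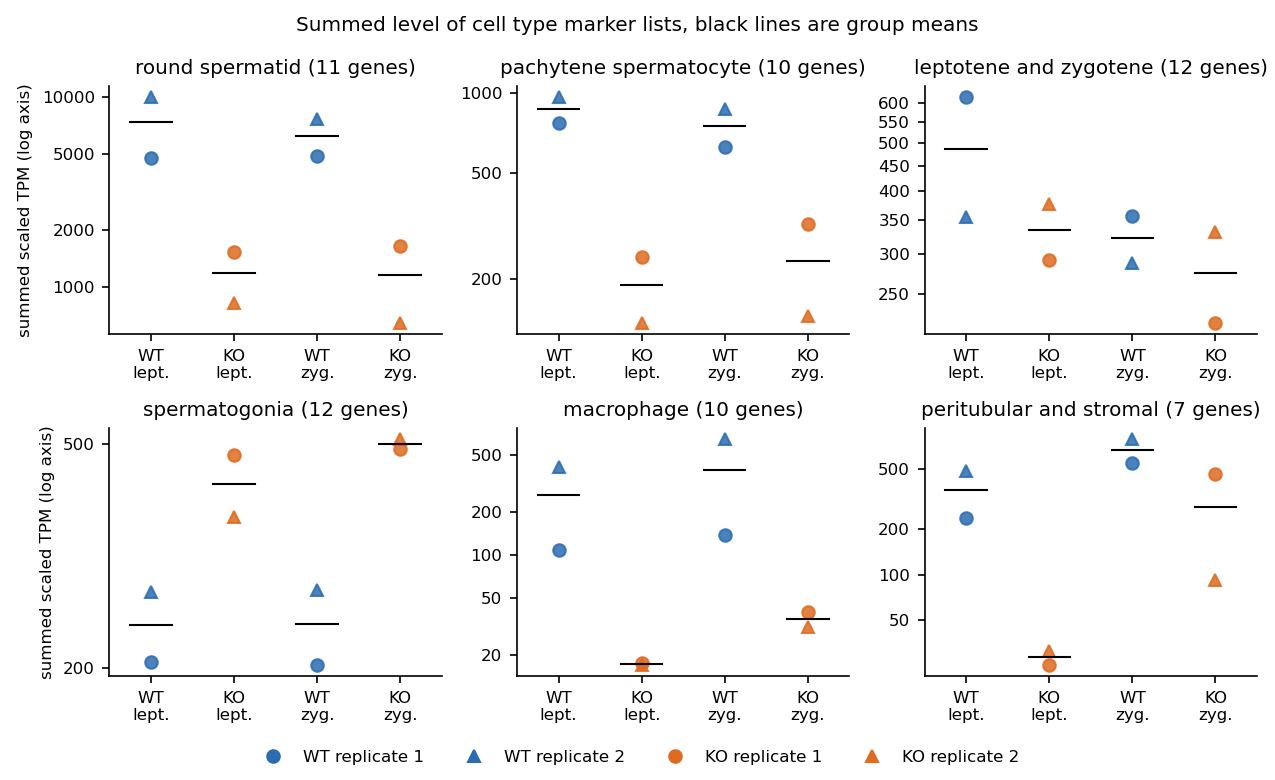
Summed scaled TPM, on log axes, of 6 lists of cell type markers in WT (blue) and KO (orange) libraries, with circles for replicate 1, triangles for replicate 2 and black lines for group means. Round spermatid sums run from 4771 to 10009 in WT and from 645 to 1648 in KO, spermatogonial sums are higher in KO, and leptotene and zygotene sums overlap.

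The wider redox system was followed through lists of genes. Of 18 other thioredoxin family genes 17 were tested and 0 were called in any KO comparison. Of all genes 1.12% were called at leptotene, 1.3% at zygotene and 7.93% over both stages. The median log2 difference over both stages was 0.08 beside -0.12 for all genes. Over both stages limma gave 2 of the 17 an unadjusted p under 0.05, beside 4330 of all 16929 tested genes, and limma-voom called 0, beside 8.34% of all genes. Txnip, the thioredoxin inhibitor and the most abundant of them, ranged from 58.3 to 203 in WT and from 63.1 to 145 in KO (limma adjusted p = 0.523). Of 12 other peroxiredoxins and glutathione peroxidases 11 were tested and 0 were called by limma in any KO comparison, beside the same shares of all genes. Over both stages 2 of the 11 had an unadjusted p under 0.05, limma-voom called 0, and the median was -0.25. Prdx5, a mitochondrial and peroxisomal peroxiredoxin, had the highest mean over all 8 libraries (51.3, beside 49.3 for Prdx1, which was the higher of the pair in KO). It lay between 36.9 and 64.3 in WT and between 52.4 and 59.3 in KO.

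The counts below are for both stages together, where 1.61% of all tested genes rose and 6.33% fell. Of 11 genes of glutathione and NADPH supply limma gave 6 an unadjusted p under 0.05, beside 4330 of all 16929 tested genes. Of the 11, 1 rose and 0 fell, with a median of 0.44. The one was Gsr, glutathione reductase, at 18.3 and 23.9 in WT leptotene and 14.0 and 17.6 in WT zygotene, against 74.6 and 45.3 in KO leptotene and 49.9 and 56.2 in KO zygotene (log2 difference 1.56 ± 0.24, limma adjusted p = 0.0135). Of 8 tested genes of superoxide, catalase and NRF2, 1 rose and 1 fell. Sod1, the cytosolic superoxide dismutase, rose from between 105 and 113 in WT to between 158 and 248 in KO (0.84 ± 0.19, limma adjusted p = 0.0429). Hmox2, a heme oxygenase, fell from between 90.9 and 162 to between 40.9 and 61.8 (-1.33 ± 0.24, limma adjusted p = 0.0239), and the median of this list was -0.28.

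Selenium use was examined because Gpx4, Txnrd1 and Txnrd3 need selenocysteine. Of 8 genes of the selenocysteine machinery 1 fell, beside 6.33% of all genes. It was Sephs2, which makes the selenium donor and is itself a selenoprotein. It was between 28.1 and 38.5 in WT and between 13.9 and 16.4 in KO (log2 difference -1.04 ± 0.20, limma adjusted p = 0.0262), and the median of the list was -0.18. Of 11 tested other selenoproteins 2 fell and 1 rose over both stages, beside 6.33% and 1.61% of all genes, with a median of -0.38. Selenoo was at 7.46 and 7.04 in WT leptotene and 15.6 and 16.7 in WT zygotene, against 0 and 0 in KO leptotene and 2.71 and 1.97 in KO zygotene (limma adjusted p = 0.0075). Selenon fell from between 3.10 and 8.88 in WT to between 0 and 0.0338 in KO (limma adjusted p = 0.0114), and Selenoh rose from between 15.2 and 22.2 to between 36.0 and 56.9 (limma adjusted p = 0.0202).

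In the thiol oxidation pathway of the endoplasmic reticulum, the compartment of the main Prdx4 protein, 3 of 9 tested genes fell over both stages, beside 6.33% of all genes, 0 rose, and the median of -0.12 was that of all genes. All 3 encode testis chaperones of sperm surface proteins rather than oxidases of somatic cells. Pdilt, a testis protein disulfide isomerase relative, was at 11.9 and 9.27 in WT leptotene and 12.1 and 10.7 in WT zygotene and was listed at 0 in all KO libraries (limma adjusted p = 0.0047). Calr3 fell from between 16.4 and 22.9 to between 3.56 and 4.65 (limma adjusted p = 0.0108) and Clgn from between 34.4 and 52.3 to between 18.1 and 23.2 (limma adjusted p = 0.0431). Of the 9 genes 5 had negative estimates, and limma gave 6 an unadjusted p under 0.05, beside 4330 of all 16929 tested genes. P4hb, Pdia3 and Pdia6 were higher in KO by 0.54, 0.56 and 0.55 log2 but did not pass (limma adjusted p = 0.0757, 0.0797 and 0.0965). At single stages only Pdilt, at both, and Selenoo, at leptotene, passed among all of these lists.

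Many genes shared the pattern of the sperm thioredoxins over the 8 libraries, which form a WT and a KO set. Likeness was Pearson's r of log2(scaled TPM + 1), as a description with no test. Members and genes with Gm-number or Rik names were left out of the ranking. Among the genes compared, those most like Txndc2 were Mlf1, Cstl1 and Apopt1, at 0.990, 0.986 and 0.986. The most like Txndc8 were Gemin6, Chd5 and Tmem269, at 0.999, 0.997 and 0.995. The most like Nme8 were Trp53tg5, Tex26 and Tex21, all above 0.99. Of 13155 genes compared, 3.82% had an r above 0.9 with Txndc2, 4.57% with Txndc8 and 4.64% with Nme8. For Txnrd3 the closest were Mkrn1, Aqp11 and Tesk1, at 0.993, 0.988 and 0.988, with 3.82% above 0.9, and among members Txnrd3 and Gpx4 reached 0.973.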

How the data were processed

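RNA of 8 libraries in 4 groups was analysed. Per the submitters' processing notes, HISAT2, mm10 and DESeq2 were used, with settings not given in the sources used here. Per the file headers, the authors assembled each library separately with StringTie 2.1.2 on Ensembl release 89, without a strand option, and the deposited values are coverage, FPKM and TPM per transcript, not counts. Named transcripts held between 59.0% and 72.3% of TPM. Since the files hold no read numbers, precision is judged only from the spread between libraries.

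For each gene symbol TPM was summed and divided by median-of-ratios factors. The 16929 genes that reached a TPM of 1 in 2 or more libraries were tested as log2(scaled TPM + 1) with limma 3.58.1 (R 4.3.3), using 4 group means, an intensity trend and 4 residual degrees of freedom. The 6 comparisons set KO against WT (per stage, and averaged), stages against each other (per genotype), and genotype effects between stages. A call is a Benjamini-Hochberg adjusted p under 0.05 over all these genes. The exact two-sided permutation tests use 70 arrangements of 4 against 4 libraries and are unadjusted. They cover 8 members by level, 8 by coverage (offset 0.01 in log2) and the first exons. Replicate libraries correlated across genes, which are not independent, with r between 0.81 and 0.84.

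The members and lists were chosen with earlier results of these data known. All members are named, with called genes of each list (or its most abundant gene) and the 3 genes most like each of 4 members. Genes with Gm-number or Rik names were left out of that likeness. Symbols without a value were Nqo1, Odf1, Fshr, Hsd3b1 and Lhcgr. Coding sequences came from GENCODE M21 and upstream sequences from a RefSeq table. The test was tried on simulated data. Alternatives covered pseudocount, filter, scaling, unit, gene assignment, replicate block and omission of each library. Tables and plots used Python 3.11.15, pandas 2.3.3, NumPy 2.4.6, matplotlib 3.10.9 and bedtools 2.31.1.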

Additional observations from a re-analysis of the deposited data

Results flagged for a closer look

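In 2 of 44 groups of 4 libraries examined, 1 library stood away from the other 3 by more than Dixon's 95% limit for 4 values, and chance alone flags about 1 in 20 such groups. Among KO libraries, Txndc8 had a scaled TPM of 1.25 in zygotene replicate 1 and was listed at 0 in the other 3. Among WT libraries, the share of Gpx4 first-exon coverage in the alternative exon was 29.8% in leptotene replicate 1, below the other 3, with a gap of 0.849 of the range.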

How the results depend on the processing

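Of the 8 genes, 3 were called at leptotene and 2 at zygotene. With a pseudocount of 0.1 or no filter 1 was called at leptotene and 1 at zygotene, and with only the libraries of the comparison 0 and 0. At zygotene 1 was also called with unnamed transcripts added by GENCODE overlap and with limma-voom. The replicate block gave 0 at leptotene, 0 at zygotene and 3 over both stages, and same-numbered WT and KO libraries deviated with correlations of -0.08 (leptotene) and -0.10 (zygotene), so no pairing of WT with KO by number was seen. Within a genotype the stages correlated at 0.20 (WT) and 0.068 (KO) by number, and same-numbered libraries share their kind. Without 1 library, calls numbered from 0 to 3 at leptotene and 0 at zygotene. Over both stages 3 became 4 with quantile normalization, with a filter at a TPM of 5 and with GENCODE overlap, where Nme8 was lost, and 5 with TPM as deposited, with unnamed transcripts of the locus added, and with library kind as a term, also together with GENCODE overlap. The cause of these changes was not tested.

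Among all genes, calls over both stages were 272 higher and 1071 lower, 448 and 881 with quantile normalization (median shift from -0.12 to 0.11 log2), and 2190 in all with locus transcripts added, 2048 with GENCODE overlap and 2869 with library kind as well, 857 without a filter and 778 with the block. At leptotene 189 became 82 to 934 where a value was above 1, 1 with the block and 0 with only its own libraries, and at zygotene 220 became 120 to 784, 0 with the block and 0 with only its own libraries. Without 1 library they numbered 0 to 285 at leptotene, 0 to 5 at zygotene and 375 to 1149 over both stages.

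The direction of Txnrd1 and Prdx4, never called, turned with the setting. Txnrd1 at leptotene was -0.070 with a pseudocount of 5 and -0.24 with GENCODE overlap (with and without library kind), between -1.34 and 1.59 without 1 library, and -0.37 without KO leptotene replicate 2. At zygotene it lay between -0.29 and 1.30 without 1 library. Over both stages it was -0.019 with GENCODE overlap, also with library kind and in the 4 against 4 test, between -0.42 and 1.05 without 1 library in the fit, and between -0.36 and 0.77 in the 4 against 4 test, including -0.083 without WT zygotene replicate 1 in the fit and -0.018 without KO zygotene replicate 1 in the 4 against 4 test. Prdx4 at leptotene was -0.35 with locus transcripts and -0.35 with GENCODE overlap, also with library kind, and between -0.087 and 0.59 without 1 library. At zygotene it was -0.060 with locus transcripts. Over both stages and in the 4 against 4 test it was -0.21 with locus transcripts and -0.17 with GENCODE overlap, also with library kind, and -0.031 by coverage.

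The 4 against 4 difference of Txnrd3 lay between -1.03 and -0.78 without 1 library (exact permutation p = 0.0571 at -0.78, without KO leptotene replicate 2). The first-exon share of Prdx4 differed by -29.8 to -20.9 points without 1 library and by -14.5 points from named TPM, and that of Gpx4 by -12.2 to 6.46 points. Depth limits the KO values of Txndc2, Txndc8 and Nme8, whose coverage per aligned gigabase was at most 1.59.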
